A study of Mus musculus with 2 samples.

Results

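The collagen and laminin genes of the mouse were followed across the cell classes of the hippocampus. They were taken as every row of both count matrices whose symbol has the form of a collagen chain or a laminin chain gene. The rule found 55 genes among 41605, 44 for collagen chains and 11 for laminin chains, and no measured value entered the choice. The 11 laminin genes hold 5 alpha, 3 beta and 3 gamma chains. The 44 collagen genes were sorted into 8 groups by structure, the fibrillar class being the largest with 11 genes. A mixed group of other collagens holds 3 genes.

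The study sequenced hippocampal cells of wild-type C57BL/6 males, 10 weeks old, with the 10x Genomics 3′ kit of version 3. Each of the 2 libraries was made from a pool of 3 mice. The series sets enzymatic digestion, 30 min at 37 °C, beside mechanical dissociation at 4 °C. Neither sample label carries its dissociation method, so the samples are named library 1 and library 2 and no effect of dissociation was tested. All cells shared the wild-type genotype, and a density gradient step to remove debris and myelin followed the dissociation.

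Collagens are triple-helical proteins of the matrix. The fibrillar types build fibres in connective tissue, whereas type IV forms the sheet of basement membranes. Laminins are heterotrimers of an alpha, a beta and a gamma chain that organise the basement membrane and bind integrins and dystroglycan on cells. In the brain, basement membranes lie around the vessels, under the endfeet of astrocytes and at the pial surface, and fibrillar collagen is known mainly from the meninges and the adventitia of larger vessels.

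The libraries differed in make-up before any gene was considered. Library 1 held 12306 barcodes, of which 5989 were kept, and 74.8% of the kept cells were neuron-like. Library 2 held 6448 barcodes, of which 2075 were kept, and 72.5% were microglia-like. The median count of unique molecular identifiers (UMIs, each marking 1 captured RNA molecule) per kept cell was 1695 in library 1 and 6433 in library 2. The median share of mitochondrial UMIs over all barcodes was 1.76% and 13.3%. The libraries shared 19 barcode sequences, 3 of them among kept cells. Classes were assigned cell by cell from marker lists that hold no collagen or laminin gene, and 91 cells in library 1 and 55 in library 2 lay within 0.1 of the score ratio that separates a named from an unnamed cell. Cells without a class numbered 386 in library 1 and 83 in library 2. Each library is 1 pooled sample, so no test between classes was possible. Levels are UMIs summed over the cells of a class and scaled to 1000000 UMIs of that class (CPM), with exact Poisson 95% intervals in parentheses, and shares carry exact Clopper-Pearson 95% intervals. The intervals cover counting error only. The cells without a class in library 2 held 1736 CPM of the 55 genes together. A 3′ UMI counts a molecule whatever the gene's length, so levels were compared between genes without scaling by length.

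Across all barcodes, UMIs of the 55 genes numbered 12530 in library 1 and 20713 in library 2, and the kept cells held 58.2% and 53.2% of them. All 55 genes had at least 1 UMI in library 1. In library 2 Col24a1 and Col6a4 had none. At least 10 UMIs in kept cells were found for 44 genes in library 1 and 43 in library 2. The members lie on 17 chromosomes.

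Most kept cells of the vascular and fibroblast-like classes came from library 2. Under the filters used, it held 22 fibroblast-like, 81 mural-like and 178 endothelial-like cells, against 1, 5 and 5 in library 1, too few to describe. With a minimum of 500 UMIs in place of 1000, library 1 held 11, 17 and 19 of them. The fibroblast-like cells carried the highest summed level of the 55 genes, 8322 CPM (7914 to 8745). Mural-like cells had 3728 CPM (3537 to 3926) and endothelial-like cells 1137 CPM (1097 to 1177). The glial classes of library 2 lay below all of these, with 294.9 CPM (284.4 to 305.6) in 1504 microglia-like cells and 160.3 CPM (126.9 to 199.8) in 48 oligodendrocyte-like cells. No 2 of these 5 intervals overlapped. Collagens made up most of the fibroblast-like sum, 6396 CPM against 1926 CPM for laminins. In mural-like cells the 2 groups were level, at 1857 and 1870 CPM.

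**Figure D1:**
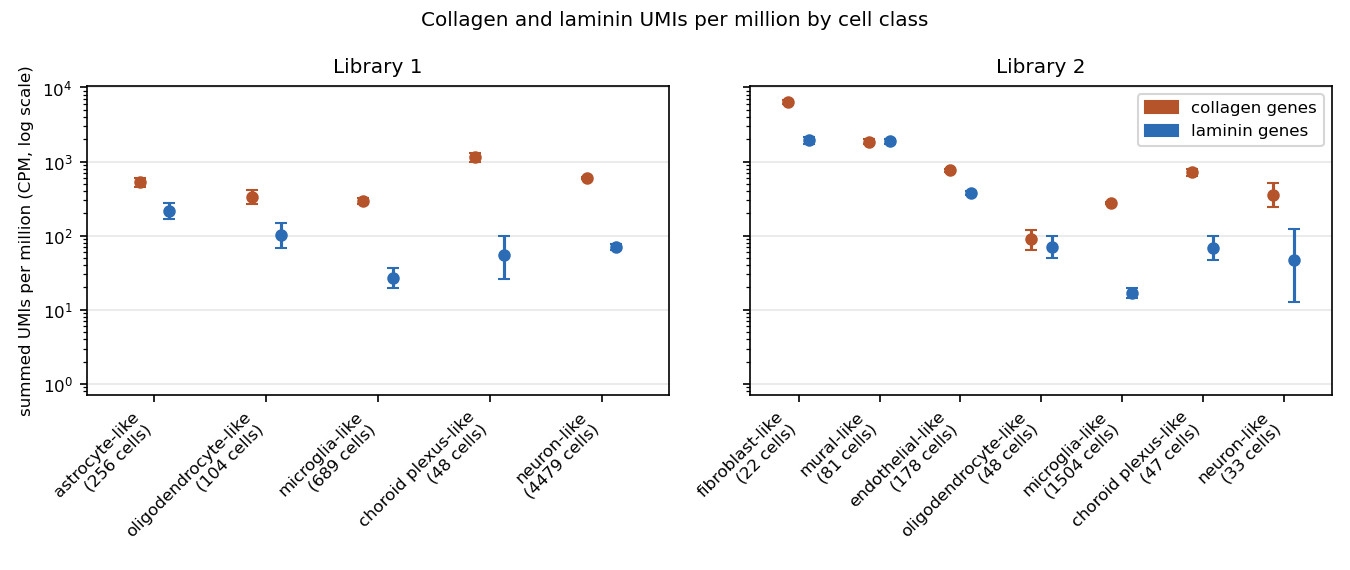
Summed level of collagen genes (brown) and of laminin genes (blue) in CPM on a logarithmic axis, for each named class of at least 20 cells in library 1 (left) and library 2 (right). Points are class sums and bars exact Poisson 95% intervals. In library 2 fibroblast-like cells stand at 6396 and 1926 CPM, and the points of mural-like cells are level at 1857 and 1870 CPM.

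A size rule took the place of a test. A gene was called where its CPM plus 10 was at least 4 times that of the other class, among genes with at least 10 UMIs over the classes compared. Fibroblast-like cells were above mural-like cells for 13 of 32 members tested, against 3.47% of all genes. They were above endothelial-like cells for 23 of 33 (background 4.05%) and above microglia-like cells for 28 of 35 (5.51%). In the median member the log2 ratio of fibroblast-like to mural-like cells was 1.82, and that of all genes was -0.19. Mural-like cells were above endothelial-like cells for 10 of 27 members (3.93%), with a median log2 ratio of 1.70 against 0.10 over all genes. They were above microglia-like cells for 16 of 29 (5.90%). Over fibroblast-like cells, 3 of 32 members were called in mural-like cells (5.26%), Col4a3, Col14a1 and Col8a1. Endothelial-like cells were above microglia-like cells for 7 of 31 (5.20%) and above mural-like cells for 1 of 27, Col13a1, a share near the 4.45% of all genes. No member of 42 was highest by the rule in endothelial-like cells over every other class (1.18%). A gene can reach 10 UMIs through the very class where it is high, so these counts and medians are descriptions and support no difference. Among members with 10 UMIs in the lower class alone, fibroblast-like cells were above mural-like cells for 2 of 17, above endothelial-like cells for 10 of 20 and above microglia-like cells for 9 of 15. Mural-like cells were above endothelial-like cells for 6 of 20 and above microglia-like cells for 6 of 15, and endothelial-like cells above microglia-like cells for 2 of 15. The share of all genes under this narrower filter was not computed, so these counts have no background and are given as descriptions. The single members called over another class, Col13a1 over mural-like cells and the 3 of mural-like over fibroblast-like cells, all passed the filter through the class where they were high.

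Fibroblast-like cells, which make the loose connective tissue of the meninges and vessel walls, were marked by 10 of their 12 listed genes. Dcn, the small proteoglycan decorin, had UMIs in 22 of 22 cells. Of the pericyte list, 5 of 8 markers had UMIs in these cells, with Vtn at 7449 CPM and Pdgfrb at 356.5 CPM, each in 20 cells. Rgs5, Abcc9 and Higd1b were at 0 UMIs. Of the endothelial list, 6 of 12 had UMIs, with Itm2a highest at 388.4 CPM in 16 cells, and Cldn5 was at 0 UMIs. Other lists also had levels there. The astrocyte list summed to 2229 CPM, with Slc1a3 at 952.4 CPM in 19 cells. Pdgfra, from the list for oligodendrocyte precursors, stood at 899.2 CPM in 22 of 22 cells. The neuron marker Snhg11 stood at 1415 CPM, and Ttr, the main transcript of choroid plexus, at 1415 CPM in 22 of 22 cells. The part of free RNA or of mixed droplets in these levels was not tested.

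The type I collagen chains led in these cells. Col1a2 had 314 UMIs in 22 of 22 cells, 1671 CPM (1491 to 1866), with 4 UMIs in the lowest cell, a median of 12.5 and 31 in the highest. Col1a1 had 228 UMIs in 21 of 22 cells, 1213 CPM (1061 to 1381), with a median of 8.5 and a maximum of 28. Both chains were present together in 21 of the 22 cells, so the pair was found in nearly every cell of the class and was not the property of a few. Col12a1, a fibril-associated collagen, came next with 436.3 CPM (347.0 to 541.6) in 18 cells. Col3a1, the fibrillar chain of type III, had 276.7 CPM in 14 cells. Fibrillar chains made up 52.7% of all collagen UMIs in the class, type IV chains 14.6%, and fibril-associated chains 9.65%.

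Of 42 members tested in library 2, fibroblast-like cells were at least 4-fold above every other class for 12, against 0.723% of all genes. The ratios for Col12a1 and Col1a1 were 40.63 and 36.54, followed by 22.56 for Lama1, which encodes a laminin alpha chain. Col18a1 and Col15a1, the multiplexins that release endostatin-type fragments, had ratios of 8.23 and 8.03. The remaining 7 were Col22a1, Col4a6, Col1a2, Col6a3, Col16a1, Col9a2 and Col4a5, between 6.79 and 4.32. Of the 12 UMIs of each over the classes, Col22a1 had 11 and Col9a2 had 8 in fibroblast-like cells, so both passed the filter only through that class, and the other 10 members reached it without that class. Col15a1 was uneven, since 53.7% of its 67 UMIs lay in 2 of the 22 cells and 8 cells had none.

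Summed over the 55 genes, the fibroblast-like cells ranged from 22 to 184 UMIs per cell with a median of 62.5, and from 2812 to 22230 CPM with a median of 6810. Without the cell with the most member UMIs, the class stood at 7681 CPM. A stricter marker rule kept 13 cells at 6212 CPM, and clusters built without the 55 genes placed all 22 cells in a cluster of 36 that stood at 7232 CPM. Each of these values is above the mural-like level.

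**Figure D2:**
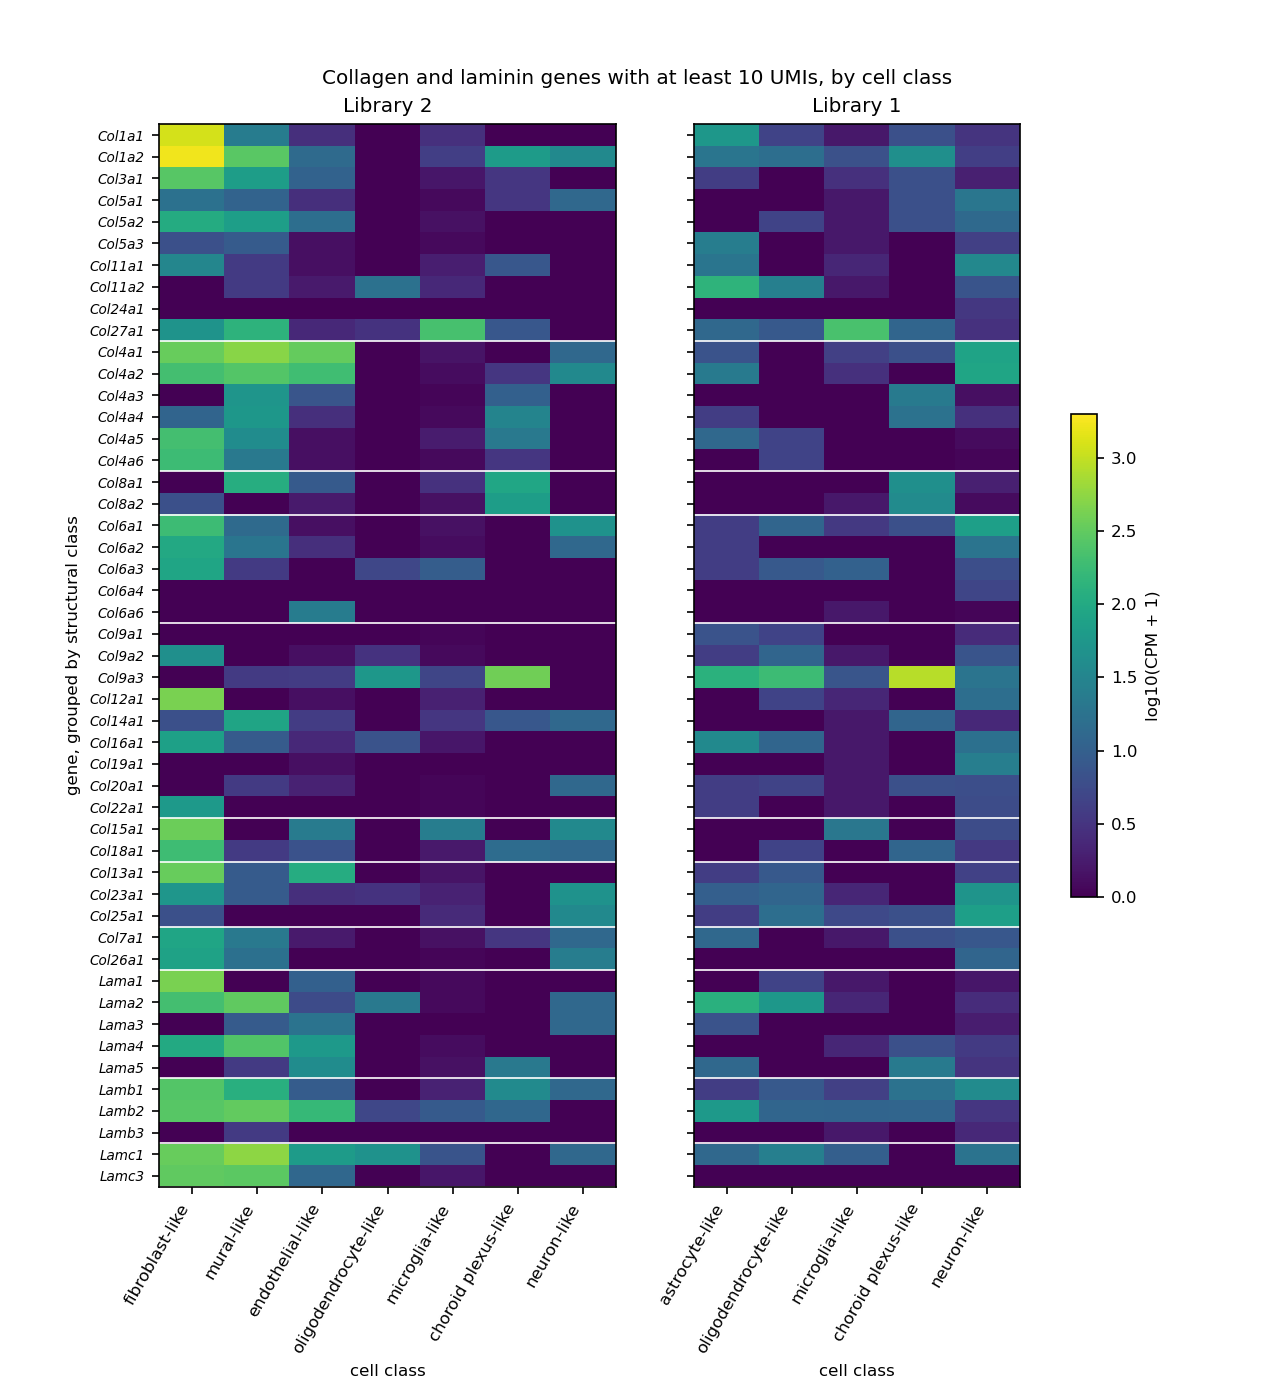
Level of 49 members with at least 10 UMIs over the compared classes of either library, as log10 of CPM plus 1, with genes in rows by structural class and cell classes of at least 20 cells in columns. White lines part the structural classes. The fibroblast-like column of library 2 is brightest at Col1a2 and Col1a1 (1671 and 1213 CPM), and the microglia-like columns at Col27a1 (219.1 and 222.3 CPM).

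Mural-like cells, the contractile cells around small vessels, were nearly all pericyte-led (79 of 81). All 8 pericyte and 8 smooth muscle markers had UMIs. Fibroblast markers summed to 393.9 CPM, against 10801 CPM in fibroblast-like cells, and the choroid plexus list, led by Ttr, to 3386 CPM. The leading members encode laminin and type IV collagen chains. Lamc1 stood at 550.5 CPM (478.7 to 629.9) in 69 of 81 cells and Col4a1 at 519.1 CPM (449.5 to 596.5) in 72. Lamb2 had 320.9 CPM, Lama2 had 315.7 CPM and Lamc3 had 297.4 CPM, with intervals that overlapped. Type IV chains made up 51.0% of the collagen UMIs and fibrillar chains 32.7%.

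The chains of type I collagen were unequal in pericyte-led cells. The 79 cells held 100 UMIs of Col1a2, in 47 cells, and 0 of Col1a1, which allows a Col1a1 share of the pair of up to 3.62%. In fibroblast-like cells Col1a1 was 42.1% of the pair (37.9 to 46.3). The 9 Col1a1 UMIs of the mural-like class lay in 1 cell led by smooth muscle markers, whose RNA also held 25 UMIs of the endothelial gene Plvap. In microglia-like cells, which should lack the pair, 9 of 1504 cells had a Col1a1 UMI (0.598%) and 11 a Col1a2 UMI (0.731%), at a median depth of 6505 UMIs against 4616 in mural-like cells. After each cell was thinned to 1000 UMIs, the smallest depth kept, Col1a2 was found in 21% of mural-like cells (12.7 to 31.5) and 0.199% of microglia-like cells.

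The members called in mural-like over endothelial-like cells were Col4a4, Lamc1, Lamc3, Col4a5, Col27a1, Col1a2, Lama2, Lamb1, Col14a1 and Col8a1. Col8a1, a short-chain network collagen of vessel walls, had 43 UMIs in 24 cells, 112.2 CPM (81.2 to 151.1). Col27a1, a fibrillar chain, had 52 UMIs in 31 cells, 135.7 CPM (101.3 to 177.9). Col14a1 was the only member at least 4-fold above every other class in mural-like cells, 1 of 42 against 0.704% of all genes. However, 31 of its 32 UMIs came from 1 cell, the same smooth muscle-led cell that held the 9 Col1a1 UMIs. Clustering placed that cell among endothelial-like cells. The calls of Col14a1 over fibroblast-like and endothelial-like cells rest on it too. The 79 pericyte-led cells held 1 UMI of Col14a1.

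Type IV collagen has 6 chains whose genes sit in 3 pairs, each pair head to head on 1 chromosome. Col4a1 and Col4a2 lie on chromosome 8, where their annotated 5′ ends overlap by 22 bases. Col4a3 and Col4a4 lie on chromosome 1 with 71 bases between their starts, and Col4a5 and Col4a6 on chromosome X with 1308 bases between them. The stretch between the starts is shown for the 2 closest pairs, because their starts lie nearest to each other. It was read on the plus strand from the GRCm38.p6 genome, at chr8:11312805-11312826, where all 22 bases lie in exons, and at chr1:82586850-82586920, where no base lies in an exon. Capitals mark GGGCGG, the GC box.
Col4a2/Col4a1 start to start: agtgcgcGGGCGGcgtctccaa
Col4a4/Col4a3 start to start: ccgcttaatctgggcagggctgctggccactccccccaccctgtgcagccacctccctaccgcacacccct
Both strands were searched for the TATA box, spelled TATAAA, for the CCAAT box, spelled by its name, and for the GC box, none of which contains another. The first stretch holds a GC box. Of all 27025 RefSeq promoters, 7.4% have one in the 22 bases before the start, but the stretch shown lies after both starts and in exons, so the share describes another kind of region. The second holds none of the 3 motifs, and 21.2% of promoters have a GC box in the 71 bases before the start.

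The Col4a1 and Col4a2 chains were found together in each vascular class. Col4a1 was 62.7% of the pair's UMIs in fibroblast-like cells (52.6 to 72.1), 66.6% in mural-like cells (60.9 to 71.9) and 62.6% in endothelial-like cells (60.1 to 65.1). These intervals overlapped. In neuron-like cells of library 1 the share was 48.4% (45.8 to 51.0), and that interval lay below the other 3. Those 3 came from the other library, so class and library cannot be told apart in this comparison. A share of UMIs is not a ratio of protein chains.

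The other pairs were sparser. Col4a5 and Col4a6 were highest in fibroblast-like cells, with 202.2 CPM (143.1 to 277.5) and 180.9 CPM (125.3 to 252.8), and both were called there over every other class. Mural-like cells had 39.1 and 20.9 CPM. Col4a3 and Col4a4 had 52.2 CPM (31.9 to 80.6) and 54.8 CPM (33.9 to 83.7) in mural-like cells. Of the 29 mural-like cells with a UMI of either of these genes, 2 had both. Fibroblast-like cells had 2 UMIs of Col4a4 and none of Col4a3.

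Endothelial-like cells, which line the vessels, had UMIs of all 12 of their markers and led with basement membrane chains. Col4a1 stood at 327.0 CPM (306.2 to 349.0) in 156 of 178 cells, Col4a2 at 195.2 CPM in 127, and Lamb2 at 163.0 CPM in 122. Microglia-like cells of the same library had 5 Col4a1 UMIs in 2 of 1504 cells (0.133%), at a median depth of 6505 UMIs against 7726. Type IV chains made up 70.0% of collagen UMIs. Transmembrane collagens made up 14.7%, nearly all of it Col13a1, with 306 UMIs in 46 cells.

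A split of the endothelial-like cells by their Cldn5 UMIs was added after the data were seen. Cldn5 encodes the tight junction protein of the blood-brain barrier, and Plvap encodes the diaphragm protein of fenestrated vessels. The 39 cells without a Cldn5 UMI had Plvap at 3360 CPM in 39 of 39 cells. The 139 with Cldn5 had Plvap at 44.6 CPM in 6 cells. The Cldn5-less cells stood at 3179 CPM over the 55 genes (2994 to 3372) and those with Cldn5 at 846.1 CPM (810.0 to 883.4). The choroid plexus list summed to 2347 CPM in the former and 734.8 CPM in the latter. The cells with Cldn5 differed in depth, and a split of them by depth is given below. The 105 shallower ones had 1783 CPM of this list and 971.7 CPM (900.3 to 1047) over the 55 genes. The 34 deeper ones had 309.9 and 795.2 CPM. Median depth was 8219 UMIs in the Cldn5-less cells, 5257 in the shallower and 46342 in the deeper cells. The part of depth and of the choroid plexus list in the result was not tested.

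Col13a1, a transmembrane collagen, followed this split. It had 289 UMIs in the 39 Cldn5-less cells, 831.3 CPM (738.2 to 932.9), with 1 UMI in the lowest cell, a median of 6.00 and 37 in the highest. The 139 cells with Cldn5 held 17 UMIs in 7 cells, 6.96 CPM. Every Cldn5-less cell had the transcript, and 5.04% of the others did, against 0.133% of microglia-like cells. Fibroblast-like cells had 340.5 CPM of Col13a1 (262.3 to 434.9), in 19 of 22 cells. After thinning to 1000 UMIs the shares were 48.7% (32.4 to 65.2) and 1.44% (0.175 to 5.10).

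The Cldn5-less cells were above those with Cldn5 for 5 of 20 members tested, against 1.56% of all genes. Besides Col13a1 these were Col15a1, Col4a3, Lamb1 and Lama3, of which the first 3 passed the filter only through the Cldn5-less cells. Col15a1 had 59 UMIs in 26 cells, 169.7 CPM, against 2.05 CPM. Lama3, an alpha chain best known from epithelia, had 35 UMIs in 16 cells, 100.7 CPM, against 5.32 CPM. No member of 20 was called in the other direction, where 2.26% of all genes were. Col4a1 was at 842.8 and 253.7 CPM, which is under the 4-fold rule.

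**Figure D3:**
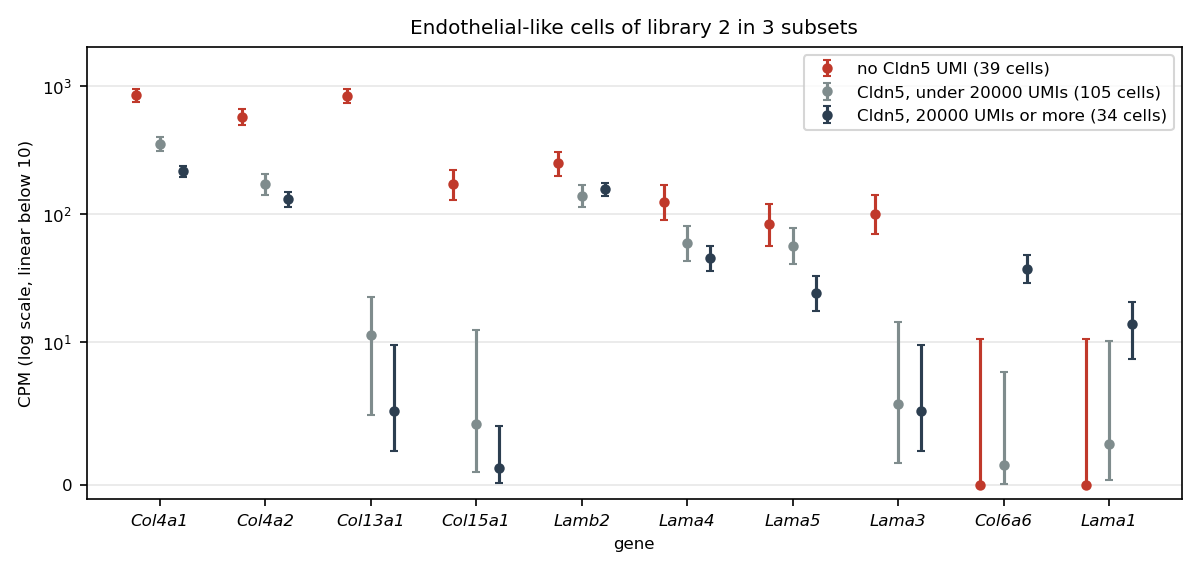
Level (CPM, logarithmic axis that is linear below 10) of 10 members in 3 subsets of the endothelial-like cells of library 2, namely the 39 cells without a Cldn5 UMI and the cells with Cldn5 under (105) or over (34) 20000 UMIs. Points are subset sums and bars exact Poisson 95% intervals. Col13a1 stands at 831.3 CPM without Cldn5, and Col6a6 at 37.4 CPM in the deep cells with Cldn5.

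Among the cells with Cldn5, 34 had over 20000 UMIs, with a median of 46342, and the gene for von Willebrand factor, Vwf, stood there at 2075 CPM in 33 cells. The 105 shallower cells had Vwf at 471.0 CPM. Col6a6, a beaded-filament chain, had 65 of its 66 endothelial UMIs in the deep cells, in 15 of them. It was the only member of 17 called there, against 0.303% of all genes, and it passed the filter through the deep cells. Depth and Vwf both moved with this split, and their part in the result was not tested.

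The promoters of Col13a1 and Col27a1 are shown because these genes carry the result on Cldn5-less endothelial-like cells and the result on microglia-like cells given next. Each is the 250 bases before the RefSeq start in GRCm38.p6, read 5′ to 3′ along the gene. That of Col13a1 is chr10:61979109-61979358 on the minus strand, where capitals mark TATAAA. That of Col27a1 is chr4:63215162-63215411 on the plus strand, inside the gene's annotated span but outside its exons, where capitals mark a GC box.
Col13a1 upstream: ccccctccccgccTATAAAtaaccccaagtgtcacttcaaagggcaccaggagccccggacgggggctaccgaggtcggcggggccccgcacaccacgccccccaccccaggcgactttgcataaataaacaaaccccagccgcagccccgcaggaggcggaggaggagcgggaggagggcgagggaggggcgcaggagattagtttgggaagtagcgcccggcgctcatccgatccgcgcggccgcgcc
Col27a1 upstream: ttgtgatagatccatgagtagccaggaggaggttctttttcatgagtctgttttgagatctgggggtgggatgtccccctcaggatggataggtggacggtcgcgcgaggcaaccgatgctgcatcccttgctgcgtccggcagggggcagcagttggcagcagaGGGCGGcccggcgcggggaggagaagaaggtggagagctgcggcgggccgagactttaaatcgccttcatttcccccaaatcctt
A promoter was at hand for 40 of the 55 members. Of these 40, 5 held TATAAA on either strand and 13 held CCAAT, near the shares of 13% and 34.5% over all 27025 promoters. GGGCGG was in 23 of the 40, above its share of 32.9% over all promoters, and the difference was not tested. None held GAGGAAGT, a site of the myeloid factor PU.1, which 2.4% of all promoters held. The ETS core GGAAG, which that site contains, was in 30 of the 40 and in 63.6% of all promoters.

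The laminin alpha chain, the part of the trimer that cells bind, differed between the vascular classes. In fibroblast-like cells Lama1 made up 58.0% of alpha UMIs (49.3 to 66.3), Lama2 28.3% and Lama4 13.8%. In mural-like cells Lama2 made up 54.5% and Lama4 43.7%, and Lama1 had no UMI in 79 pericyte-led cells, where 3 UMIs would be 8.40 CPM. Endothelial-like cells had Lama4 at 45.3%, Lama5 at 30.7% and Lama3 at 13.3%. Within them, Lama3 made up 32.1% in Cldn5-less cells. Lama1 made up 10.3% in cells with Cldn5, where 24 UMIs lay in 15 of the deep cells. The level of Lama1 was 425.7 CPM (337.5 to 529.8) in fibroblast-like cells, in 20 of 22. Lama5 stood at 39.8 CPM in 72 endothelial-like cells and was the only member that endothelial-like cells had at least 4-fold above fibroblast-like cells, 1 of 33 against 5.23% of all genes, and it passed the filter through endothelial-like cells.

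The beta chains were Lamb2 and Lamb1. Lamb2 made up 51.5% of beta UMIs in fibroblast-like, 72.4% in mural-like and 95.2% in endothelial-like cells. Among the gamma chains Lamc3 took 47.2% of gamma UMIs in fibroblast-like, 35.1% in mural-like and 15.5% in endothelial-like cells. Lamb3 had 1 UMI in mural-like cells and none in fibroblast-like cells.

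**Figure D4:**
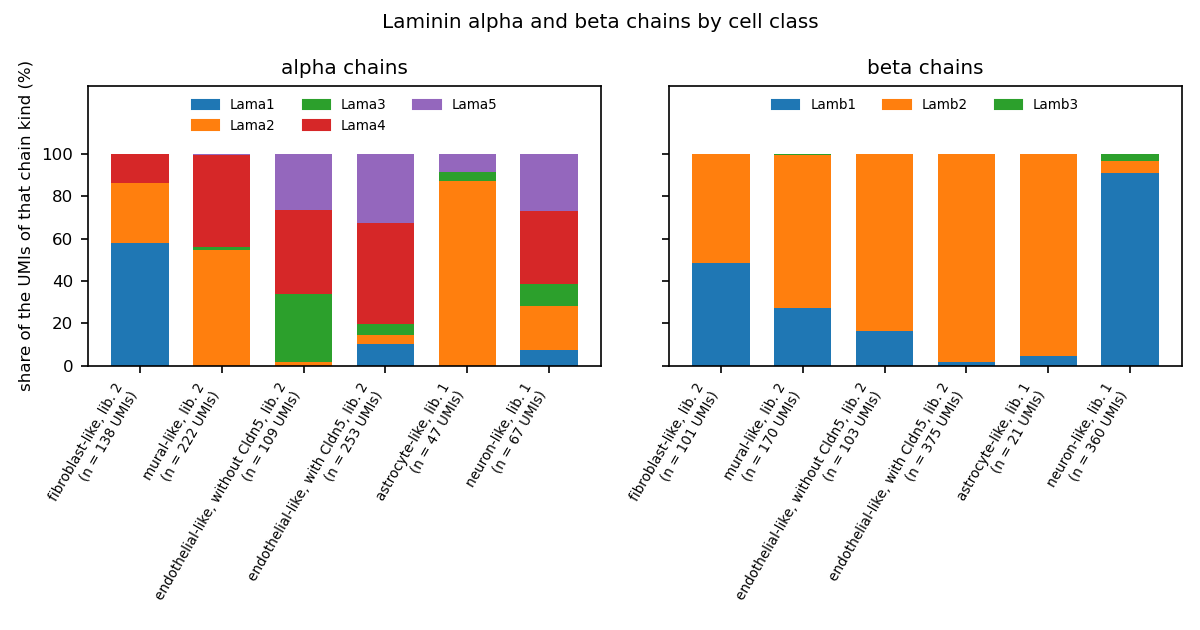
Stacked shares in percent of the alpha and beta laminin UMIs (2 panels) that each chain holds in 6 cell classes, with the UMIs behind each bar under it. Lama1 leads in fibroblast-like cells (58.0%), Lama2 in mural-like cells (54.5%) and Lama4 in endothelial-like cells with Cldn5 (47.8%).

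Among microglia-like cells, the brain's own macrophages, 1 member led. In library 1 Col27a1, a fibrillar chain, stood at 222.3 CPM (199.7 to 246.8). Its level over library 2 was 219.1 CPM (210.1 to 228.4), and the intervals overlapped although the libraries differed in depth. It had 352 UMIs in 267 of 689 cells and 2225 UMIs in 1031 of 1504 cells. After thinning to 1000 UMIs the shares of cells were 21% (18.1 to 24.3) and 18.1% (16.2 to 20.1). In library 1, where 0.201% of neuron-like cells had a UMI after thinning, Col27a1 was the 1 member of 43 called in microglia-like cells over every other class, against 2.64% of all genes. In library 2 no member of 42 was called (1.81%), since mural-like cells had Col27a1 at 135.7 CPM. Col15a1 was next, at 19.6 CPM in library 1 and 24.4 CPM in library 2, followed by 9.47 and 8.37 CPM for Col6a3. Fibrillar chains made up 80.8% and 81.8% of the collagen UMIs of microglia-like cells.

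Astrocyte-like cells, 256 in library 1, stood at 737.7 CPM over the 55 genes (648.4 to 835.8), of which laminins gave 215.9 CPM. Col11a2, a fibrillar chain, led with 46 UMIs in 43 cells, 137.9 CPM. Col9a3, a chain of fibril-associated type IX collagen, had 125.9 CPM, Lama2 had 122.9 CPM and Lamb2 had 60 CPM, with 1 or 2 UMIs in a cell that had any. Col1a1 had 18 UMIs in 17 cells, 54.0 CPM (32.0 to 85.3), against 6 UMIs of Col1a2. Col1a1 and Col11a2 were called over every other class of library 1, 2 of 43 against 1.04% of all genes. Their ratios to the next class were 4.14 and 4.13, just above the 4-fold cut. Library 1 held too few fibroblast-like, mural-like and endothelial-like cells for these classes to enter the comparison. In library 2 fibroblast-like cells had Col1a1 at 1213 CPM, whereas Col11a2 reached at most 16.2 CPM in the compared classes. Lama2 made up 87.2% of alpha UMIs and Lamb2 95.2% of beta UMIs. In the 19 astrocyte-like cells of library 2 the leading members were again Lama2 at 158.4 CPM, Col11a2 at 137.3 CPM and Col9a3 at 95 CPM.

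Oligodendrocyte-like cells, which make myelin, were low in both libraries, 434.6 CPM (359.8 to 520.5) in 104 cells and 160.3 CPM in 48. No member was called over every other class, against 1.22% and 1.38% of all genes. Col9a3 was highest, at 180.5 CPM and 54.8 CPM, but 27 of the 49 UMIs of library 1 came from 1 cell. Lama2 had 55.2 and 20.3 CPM, Lamc1 25.8 and 46.7 CPM, and Col11a2 25.8 and 16.2 CPM.

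Choroid plexus-like cells, the epithelium that secretes cerebrospinal fluid, had more Col9a3 than any other class of at least 20 cells in either library. In library 2, 47 cells held 167 Col9a3 UMIs in 31 cells, 385.1 CPM (328.9 to 448.2). The type VIII chains were uneven there. Col8a1 had 89.9 CPM and Col8a2 66.9 CPM, each in 9 cells, and 4 cells held 87.2% of the Col8a1 and 82.8% of the Col8a2 UMIs. Col8a1 was not called, since mural-like cells had 112.2 CPM. Col9a3 and Col8a2 were called over every other class, 2 of 42 against 1.23% of all genes, and Col8a2 passed the filter only through this class, with 29 of its 36 UMIs. In library 1, 48 cells held 163 Col9a3 UMIs in 37 cells, 887.3 CPM (756.3 to 1034), and Col9a3, Col8a2 and Col8a1 were called, 3 of 43 against 1.07%. Col8a2 rested on 7 of 10 UMIs and Col8a1 on 8 of 16, and both passed the filter only through this class. Those 48 cells were mixed. Clustering placed 12 of the 48 in an unnamed cluster led by Ranbp3l, Vtn and Slc7a11, and these 12 held 84 of the Col9a3 UMIs, 5547 CPM. The other 36 stood at 468.7 CPM (371.1 to 584.1), and that interval overlaps the interval of library 2. Against the 180.5 CPM of oligodendrocyte-like cells the ratio of these 36 was 2.51, under the rule, so the Col9a3 call of library 1 rests on the 12 cells. In library 2 the ratio was 6.10. Col1a2 had 28 UMIs in 7 cells of library 2 and Col1a1 had none.

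Neuron-like cells, 4479 in library 1, had 5741 UMIs of the 55 genes, 669.6 CPM (652.4 to 687.1). Collagens gave 599.1 CPM and laminins 70.4 CPM. Col4a2 led with 85.8 CPM and Col4a1 followed with 80.5 CPM. Col25a1, a transmembrane collagen of neurons, had 72.3 CPM, Col6a1 had 72.2 CPM and Col23a1, also a transmembrane collagen, had 50.7 CPM. Col4a1 was the member called over every other class of library 1, 1 of 43 against 2.18% of all genes, and it passed the filter only through neuron-like cells. The next class, astrocyte-like cells, had 6.00 CPM, and library 1 held no vascular class of 20 cells to set beside it. Lamb1 was 91.1% of beta UMIs (87.7 to 93.8). In library 2 Lamb2 led in mural-like and endothelial-like cells, and fibroblast-like cells had 52 UMIs of Lamb2 and 49 of Lamb1. The intervals of the Lamb1 share in neuron-like cells and in these classes did not overlap. Class and library cannot be told apart in this comparison. The 33 neuron-like cells of library 2 held 34 UMIs, at 403.8 CPM (279.7 to 564.3), and none of 42 members was called in them over every other class (3.88%).

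Neuron classes differed within library 1. The 165 GABAergic neuron-like cells stood at 1516 CPM (1385 to 1657), CA3-like cells (665) at 861.8 CPM (818.1 to 907.3), CA1-like cells (458) at 516.9 CPM (472.7 to 564.1) and dentate granule-like cells (762) at 343.7 CPM (311.6 to 378.2). The 4 intervals did not overlap. A further 2429 neuron-like cells were given no finer class and stood at 657.8 CPM.

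In GABAergic neuron-like cells Col25a1 had 121 UMIs in 55 cells, 375.2 CPM (311.3 to 448.3), and Col19a1, a fibril-associated chain, had 92 UMIs in 38 cells, 285.3 CPM (230.0 to 349.9). Col9a3 had 173.6 CPM, with its 56 UMIs in 22 cells. For 4 of 28 members this class was at least 4-fold above every other neuron class, against 0.515% of all genes, and 1 of the 4 passed the filter only through this class. In CA3-like cells Col6a1, a beaded-filament chain, had 280 UMIs in 115 cells, 166.0 CPM (147.1 to 186.6), and was the member called there, 1 of 28 against 0.0487%. Its partner was scarce, since Col6a1 made up 87.5% of the UMIs of Col6a1 and Col6a2. CA1-like cells led with Col4a2 at 119.2 CPM, Col4a1 at 92.5 CPM and Col11a1 at 75.0 CPM, and dentate granule-like cells with Col25a1 at 82.8 CPM and Lamb1 at 40.2 CPM. No member of 28 was called in either, against 0.0556% and 0.153% of all genes.

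**Figure D5:**
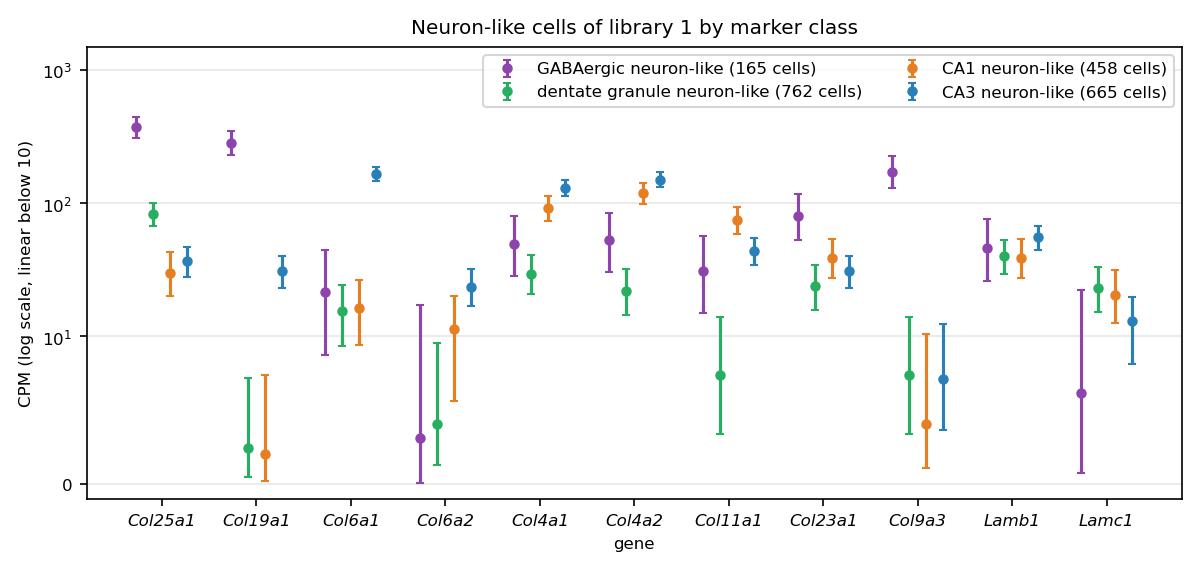
Level (CPM, logarithmic axis that is linear below 10) of 11 members in the 4 neuron classes of library 1, with points for class sums and bars for exact Poisson 95% intervals. Col25a1 and Col19a1 are highest in GABAergic neuron-like cells, at 375.2 and 285.3 CPM, and Col6a1 in CA3-like cells, at 166.0 CPM.

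Genes that process, bind or degrade collagens and laminins were read from 4 lists. Of 28 genes for collagen-modifying enzymes and chaperones, 23 were tested in library 2, and fibroblast-like cells were above every other class for 2, Pcolce and Adamts2, beside the 0.723% of all genes. Pcolce, the enhancer of procollagen cleavage, stood at 1234 CPM (1081 to 1404) against 182.6 CPM in mural-like and 7.16 CPM in endothelial-like cells. Serpinh1, the collagen chaperone, stood at 659.8 CPM in fibroblast-like, 532.2 in mural-like, 270.1 in endothelial-like and 2.46 CPM in microglia-like cells. Mural-like and endothelial-like cells had 0 of 23 called, beside 0.704% and 1.18% of all genes. Counts this small in lists this short say nothing particular about a list.

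Of 19 partners of the basement membrane, 17 were tested. Fibroblast-like cells had 1 called, Fbln2 (0.723% of all genes), mural-like cells none (0.704%), and endothelial-like cells 2, Fn1 and Tinagl1 (1.18%). Fn1, fibronectin, had 673.0 CPM in endothelial-like cells and no UMI in fibroblast-like cells. Sparc, a collagen-binding glycoprotein, had 1341, 1805 and 958.2 CPM in the 3 vascular classes, but 2977 CPM in microglia-like cells, which hold few type I or type IV transcripts. Of 17 receptors, 15 were tested, and mural-like cells had 2 called, against 0.704% of all genes. They were Itga7, a laminin receptor subunit, at 83.5 CPM and Sdc3 at 474.8 CPM. Itga1, a subunit of a collagen receptor, stood at 1156 CPM in mural-like, 441.3 in endothelial-like and 170.3 CPM in fibroblast-like cells. Of 17 proteases and inhibitors, 14 were tested and none was called in these 3 classes, beside the same shares of all genes. Counts this small say nothing particular about these lists. Timp3, an inhibitor held in the matrix, was the highest in each, at 2666, 1132 and 1282 CPM.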

How the data were processed

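The authors deposited raw UMI counts per gene and barcode, and the submitters' processing notes name Cell Ranger 3.0.1 and the build GRCm38.p5. Barcodes with at least 1000 UMIs, 500 genes and at most 10% mitochondrial UMIs were kept. Doublets were marked with Scrublet in scanpy 1.11.5 and removed. In library 2 the automatic threshold marked 0%, so the 5.16% of barcodes with the highest scores were removed. In library 1 it marked 12.8%. A cell took the class whose markers had the highest mean log count, with at least 3 markers found and the next class at most 0.67 of it. These thresholds were set after the numbers of cells per class were seen. UMIs were summed per class and library and divided by the class total. Intervals are exact (scipy 1.17.1). The 4-fold rule, its pseudocount of 10 CPM and the intervals were run on simulated Poisson and binomial counts. These held no variation between cells, so they cannot tell how the rule behaves for genes whose UMIs lie in few cells. The genes, marker lists and contrasts were chosen with earlier results of these data known. Named are up to 6 members per class by CPM, members called over every other class, paired type IV chains, the laminin genes and up to 3 genes per matrix list, and other genes were named after their values were seen. Sequences are from RefSeq and GRCm38.p6, and positions from the GENCODE M21 annotation. No column of sample values was left unused. A gene of the set is not reported here.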

Additional observations from a re-analysis of the deposited data

Results flagged for a closer look

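Cells that no marker list named held collagen and laminin UMIs. In library 1 a cluster of 51 cells stood at 4306 CPM over the 55 genes, with 142 Col9a3 UMIs in 19 cells, 26 UMIs of Col1a2, 12 of Col1a1 and 9 of Col12a1. It was led by Ranbp3l, Vtn, Slc7a11, Slc13a4 and Slc6a20a, and the 1 fibroblast-like cell of library 1 and 12 of its choroid plexus-like cells fell in it. Slc6a13, from the fibroblast list, was also among its leading genes, at 450.9 CPM against 2.26 CPM in the other kept cells. The list with the highest score over this cluster was that of choroid plexus. Another unnamed cluster of library 1 stood at 123.4 CPM. In library 2 an unnamed cluster of 62 cells led by Cd74, Mrc1 and Ccr2 stood at 144.2 CPM. Its Col27a1 level was 18.4 CPM (9.51 to 32.1), from 12 UMIs, below the interval of microglia-like cells, and Col14a1 had 41 UMIs in 16 cells, 62.9 CPM.

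Barcodes removed by the filters also carried the 55 genes, at 727.2 CPM in library 1 and 719.9 CPM in library 2, against 629.7 and 693.4 CPM in the kept cells. Given classes by the same markers, those of library 2 included 17 fibroblast-like barcodes at 5501 CPM, 88 mural-like at 3086 CPM, 114 endothelial-like at 1192 CPM and 246 choroid plexus-like at 1055 CPM. Those of library 1 included 13 fibroblast-like barcodes at 4436 CPM, 21 mural-like at 2461 CPM and 20 endothelial-like at 1010 CPM. In both libraries the order of these 3 classes was that of the kept cells of library 2. In library 1 the levels rested on 42, 40 and 14 UMIs of the 55 genes. There the intervals of fibroblast-like (3197 to 5996) and mural-like barcodes (1758 to 3352) overlapped, so the order of these 2 is not resolved.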

How the results depend on the processing

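Over 16 class sums, counts and shares, 126 of 152 values under 13 alternatives stayed within their interval or within 1.5 times the count, and 26 moved. A change of direction was not scored. With at least 2000 UMIs per cell, neuron-like cells of library 1 stood at 690.1 CPM, astrocyte-like cells at 570.6 CPM (15 cells), choroid plexus-like cells of library 1 at 721.5 CPM, and the Lama2 share in astrocyte-like cells was 100%. With up to 20% mitochondrial UMIs, fibroblast-like cells stood at 7572 CPM, mural-like at 3385, choroid plexus-like cells of library 1 at 990.3, and endothelial-like cells were above mural-like cells for 0 members. With clusters in place of the gate the values were 7232 CPM in fibroblast-like, 1295 in endothelial-like and 661.0 in choroid plexus-like cells of library 1, and 2 members endothelial over mural. The stricter gate gave 6212 and 910.4 CPM for fibroblast-like cells and choroid plexus-like cells of library 1. As means over cells, fibroblast-like cells stood at 9466 CPM, endothelial-like at 1419 and choroid plexus-like of library 1 at 2144, with 3 members endothelial over mural. A pseudocount of 1 CPM called 17 members mural over endothelial and 5 the other way. A 2-fold rule called 17 and 4, and 20 members in fibroblast-like cells over every other class. The share of all genes under the alternatives was not computed, so these counts have no background and cannot be read as an excess. Alternatives chosen after the data were seen gave 846.1 CPM in endothelial-like cells with Cldn5, with 0 members over mural, and 7681 CPM in fibroblast-like cells without their highest cell. The cause was not tested. No paired analysis was possible because each library is a single pooled sample with no labelled group. In 22 fibroblast-like cells a member with 3 UMIs stood at 16 CPM, so lower levels could not be resolved.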
